A study of Homo sapiens with 11 samples.

Results

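The genes described are a list of integrin and laminin genes, chosen by name: 37 members of the 19645 protein-coding genes that were measured. They comprise 18 integrin alpha chains, 8 integrin beta chains and 11 laminin chains. The cells were HK2, an immortalized line of human proximal tubule epithelium, and every sample came from this 1 line under 1 condition, in DMEM-F12 medium with serum and a low concentration of DMSO. There was no treated or mutant group, so no contrast and no test between groups could be made, and the values below are descriptions. RNA depleted of rRNA was sequenced as 2 libraries, and each of the marks H3K4me3, H3K27ac and H3K27me3 was profiled by ChIP-seq in 2 replicates. The input and HiChIP samples were not used here. Nothing in the labels says whether replicates came from separate cultures, so the spread between them may be technical.

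Integrins are cell surface receptors made of 1 alpha and 1 beta chain, and they tie the actin or keratin cytoskeleton to the matrix outside the cell. Which ligand is bound depends on the pair: some pairs bind laminin, some bind the RGD sequence in fibronectin, vitronectin or osteopontin, some bind collagen, and a further set is known from leukocytes. Laminins are cross-shaped trimers of an alpha, a beta and a gamma chain, and they form the sheet of the basement membrane on which tubule epithelium rests. H3K4me3 marks the starts of genes in use or poised, H3K27ac marks active promoters and enhancers, and H3K27me3 marks regions held silent by Polycomb.

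Of the 37 members, 21 reached an FPKM of 1 in each of the libraries, against 58.8% of all protein-coding genes. FPKM is the number of fragments scaled to transcript length and to the total mapped fragments, so levels can be compared between genes. The median log2(mean FPKM + 1) was 2.92 over the members, 1.55 over the 26 integrins and 4.42 over the 11 laminins, beside 2.11 over all protein-coding genes. At FPKM of at least 100 in both libraries were 4 members, ITGB1, ITGA3, LAMB1 and LAMC1, against 2.37% of all genes. Listed at 0 in both libraries was 1 member, ITGA11, against 19.6% of all genes. In bulk RNA, fewer cells expressing a gene and less RNA per cell cannot be told apart.

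**Figure D1:**
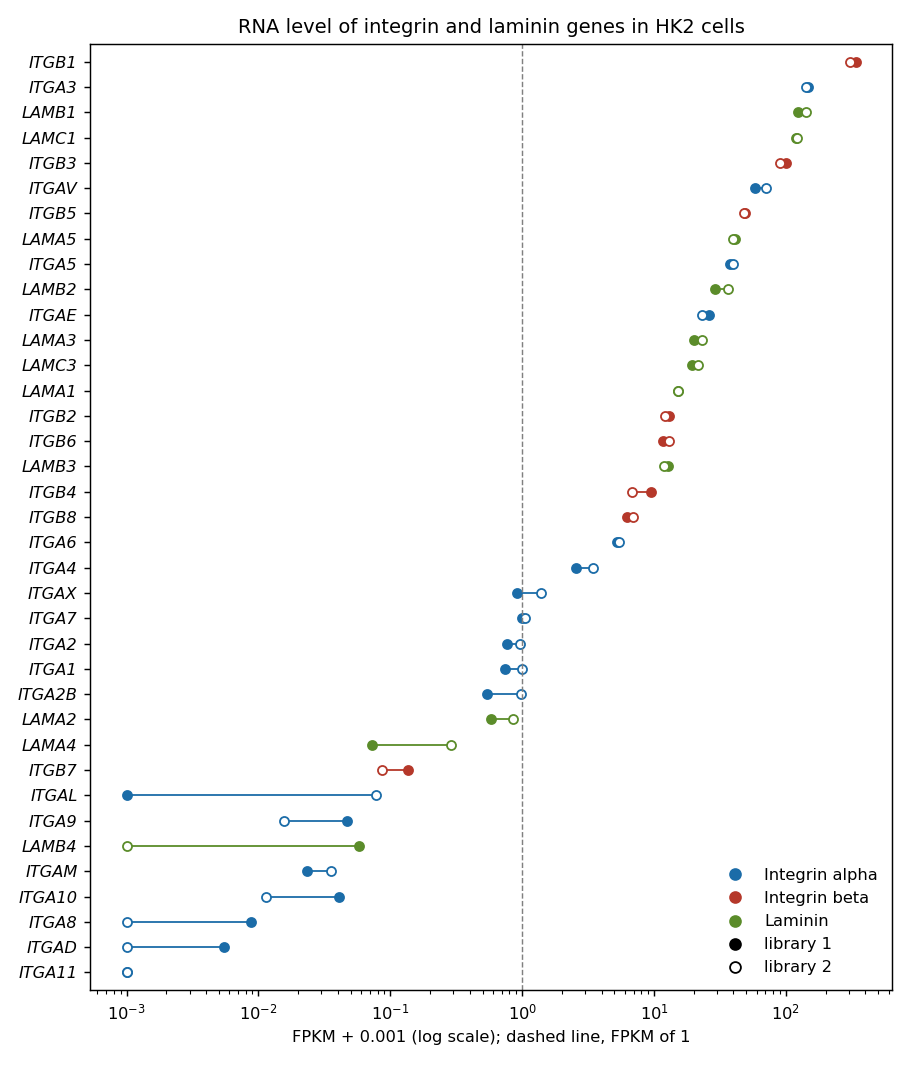
RNA level of each of the 37 genes as FPKM + 0.001 on a log axis, with a filled point for library 1 and an open point for library 2, joined by a line and coloured by family. The 21 genes from ITGB1 down to ITGA4 lie right of the dashed line at FPKM 1 in both libraries, and ITGB1 stands above all others at 340 and 308.

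The reference sequence before the starts of 7 members is shown because these starts carry the chromatin results below: the highest member of each chain type, LAMA3 with a pair of starts that differ in chromatin, and LAMA4, whose start carried H3K27me3. Each window holds the 150 bases of GRCh37 (hg19) before the outermost annotated start, read 5′ to 3′ on the strand of the gene. Capitals mark matches on either strand to GGGCGG (the GC box bound by Sp1), CCAAT (the box bound by NF-Y), TATAAA (the TATA box) or TGANTCA (the AP-1 motif).
ITGA3, chr17:48133182-48133331, plus strand: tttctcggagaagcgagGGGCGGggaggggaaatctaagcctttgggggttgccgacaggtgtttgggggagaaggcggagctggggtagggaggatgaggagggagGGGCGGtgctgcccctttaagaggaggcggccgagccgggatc
ITGB1, chr10:33247254-33247403, minus strand: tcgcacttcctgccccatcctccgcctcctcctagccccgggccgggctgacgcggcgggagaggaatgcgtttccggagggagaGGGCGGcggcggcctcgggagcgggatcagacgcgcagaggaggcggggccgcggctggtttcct
LAMA5, chr20:60942369-60942518, minus strand: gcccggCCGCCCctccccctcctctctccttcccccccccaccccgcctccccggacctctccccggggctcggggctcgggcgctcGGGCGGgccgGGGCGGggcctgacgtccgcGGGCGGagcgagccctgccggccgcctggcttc
LAMB1, chr7:107643659-107643808, minus strand: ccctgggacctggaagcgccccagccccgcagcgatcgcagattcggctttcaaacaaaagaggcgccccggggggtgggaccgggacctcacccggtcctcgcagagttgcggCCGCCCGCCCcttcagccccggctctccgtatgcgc
LAMC1, chr1:182992405-182992554, plus strand: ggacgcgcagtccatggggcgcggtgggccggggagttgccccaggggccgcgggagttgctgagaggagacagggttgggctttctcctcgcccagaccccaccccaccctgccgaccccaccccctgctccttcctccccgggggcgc
LAMA3 upstream start, chr18:21269267-21269416, plus strand: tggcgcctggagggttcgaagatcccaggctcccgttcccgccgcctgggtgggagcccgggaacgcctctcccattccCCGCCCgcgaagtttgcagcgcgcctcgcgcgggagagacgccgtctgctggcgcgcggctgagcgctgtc
LAMA3 internal start, chr18:21452834-21452983, plus strand: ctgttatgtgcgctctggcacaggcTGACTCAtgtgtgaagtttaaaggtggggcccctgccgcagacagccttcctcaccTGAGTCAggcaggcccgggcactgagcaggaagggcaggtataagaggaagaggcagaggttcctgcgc
LAMA4, chr6:112576142-112576291, minus strand: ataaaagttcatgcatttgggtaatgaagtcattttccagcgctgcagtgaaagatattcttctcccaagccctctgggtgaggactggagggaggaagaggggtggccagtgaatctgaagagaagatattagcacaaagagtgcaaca

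The windows lie upstream of the genes' own exons, although 39 bases of the ITGB1 window are exon of the divergent noncoding gene ITGB1-DT. Counted in these windows, CpG dinucleotides numbered 19 at ITGB1 and LAMA5 and 21 at the upstream LAMA3 start, but 4 at the internal LAMA3 start and 1 at LAMA4. Over 1 window per member, at its leading start or, for members below FPKM 1, at its canonical start, the 24 starts with H3K4me3 in both replicates had a median of 14 CpG (range 1 to 25) and the 13 without had a median of 1 (range 0 to 15). GC content had medians of 73.3% and 54% in the same classes. GGGCGG was found in the windows of 18 of 37 members and in 53.1% of 19546 windows of protein-coding genes. The latter windows lie before the start of each gene's canonical transcript, and member windows lie before the outermost start as above. Motif shares of members and of all genes thus come from windows placed differently. CCAAT was found in 3 members (26.5% of all windows) and TATAAA in 1 (6.63%). TGANTCA was present in 2.82% of all windows and at 1 member among the 37 windows, while the internal LAMA3 start, which is outside those 37, held 2 matches. These are letter matches only.

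Among the beta chains, ITGB1, the common partner of 12 alpha chains, was the highest of all 37 members. Its FPKM was 340 and 308 in libraries 1 and 2 (mean 324 ± 22.6, SD, n = 2), which was 64.3% and 63.6% of the summed FPKM of the 8 beta chains. Both libraries lay above every other member. The summed FPKM of the 12 alpha partners was 259 ± 6.39 (SD, n = 2), of which 5 reached FPKM 1 in both libraries. The gene was divided differently among its transcripts in the libraries: ITGB1-201 had FPKM 295 and 226, while ITGB1-202 had 0.81 and 47.1. The sum over the gene moved far less than ITGB1-202 did.

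The beta chains that pair with the alpha V chain were all at FPKM of at least 1. ITGB3, which pairs with alpha V in epithelium and with alpha IIb in platelets, had FPKM 99.4 and 89.6 (94.5 ± 6.93, SD, n = 2). ITGB5 had 48.8 and 48.3, and of this 16.7 and 18.0 were in ITGB5-202, a retained-intron transcript that starts 131 kb downstream of the gene's annotated 5′ end. ITGB6, known as an activator of TGF-beta in injured epithelium, had 11.6 and 12.9, and ITGB8, which also activates TGF-beta, had 6.18 and 6.94. Of the ITGB6 value, 6.12 and 5.12 lay in transcripts that the later annotation gives to noncoding genes, and its protein-coding transcripts had FPKM 3.25 and 4.98, below those of ITGB8 at 6.02 and 6.85. ITGB3 was thus the second beta chain and ITGB5 the third, with no overlap between the libraries of these 3 genes. ITGB3 is overlapped on the same strand by ENSG00000259753, a further protein-coding gene model that had FPKM 1.74 and 0.50, so reads of the models may be divided between them.

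ITGAV, the alpha chain shared by these receptors, had FPKM 58.4 and 70.7 (64.5 ± 8.69, SD, n = 2), split almost evenly between ITGAV-201 (50.2% and 50.1%) and ITGAV-202 (48.1% and 47.9%). ITGA5, whose pair with beta 1 is the main fibronectin receptor, had 37.9 and 39.7. The other RGD-binding chains were low: ITGA2B, the platelet chain, had 0.54 and 0.98, and ITGA8, known from kidney mesenchyme, had 0.008 and 0. The RGD-binding alpha chains together summed to 104 ± 10.2 (SD, n = 2).

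Laminin-binding alpha chains were led by ITGA3, whose pair with beta 1 binds laminins containing the alpha 3 and alpha 5 chains. It had FPKM 148 and 141 (144 ± 4.61, SD, n = 2), of which ITGA3-202, the main coding transcript, held 84.8% and 84.6%. ITGA3 made up 52.3% and 48.8% of the summed FPKM of the 18 alpha chains. ITGA6, the alpha chain of hemidesmosomes, had 5.25 and 5.43, and ITGA7, known from muscle, had 0.99 and 1.04. ITGB4, the partner of alpha 6 in hemidesmosomes, had 9.42 and 6.75. Most of that difference lay in ITGB4-212, a transcript without a defined coding sequence at 4.22 and 0.64, and the summed FPKM of protein-coding ITGB4 transcripts was 4.59 and 5.46, the opposite order.

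None of the 4 collagen-binding alpha chains reached FPKM 1 in both libraries, and they summed to 1.75 ± 0.30 (SD, n = 2). ITGA2 had FPKM 0.76 and 0.97, ITGA1 had 0.74 and 0.99, ITGA10 had 0.04 and 0.01, and ITGA11 was listed at 0 in both. ITGA1 shares its start with PELO, a ribosome rescue factor whose gene lies inside it on the same strand and had 7.78 and 8.16, so the chromatin at this start belongs to both genes. ITGA4, which binds fibronectin and VCAM1, had 2.55 and 3.43, and ITGA9, its nearest relative, had 0.05 and 0.01.

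The leukocyte integrins were low with 2 exceptions, ITGB2 and ITGAE. ITGAL had FPKM 0 and 0.08, ITGAM had 0.02 and 0.03, ITGAD had 0.004 and 0, and ITGAX had 0.92 and 1.38. ITGB7, a partner of alpha 4 and alpha E, had 0.14 and 0.09. ITGB2, the common beta chain of the alpha L, M, X and D chains, had 13.0 and 12.1. Both ITGB2 values lay above those of each of its 4 alpha partners, ITGAX being the highest of them. Of 8 leukocyte markers, 3 were at FPKM of at least 1, with a summed FPKM of 49.1 and 42.5 of which CD68, a lysosomal protein also made outside macrophages, gave 42.5 and 36.8. The other 2 were CSF1R, a macrophage growth factor receptor, at 4.66 and 4.30 and CORO1A, an actin-binding protein of blood cells, at 1.44 and 1.12, both named after their values were seen. PTPRC and CD3E were listed at 0 in both libraries. The part of leukocyte transcripts in the ITGB2 level was not tested.

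ITGAE, which with beta 7 binds E-cadherin on epithelium, had FPKM 26.3 and 23.3 over all its transcripts. Of this, 23.9 and 21.5 came from ITGAE-207 and ITGAE-202, short transcripts without a defined coding sequence that start 77.3 kb into the gene. ITGAE-207 alone, 672 nt long, had FPKM 21.6 and 19.7. The protein-coding transcripts of ITGAE had 0.49 and 0.32, which is 1.87% and 1.37% of the gene's FPKM. Those short transcripts start 49 bp from the start of HASPIN, a histone H3 kinase gene on the other strand inside ITGAE with FPKM 6.65 and 5.81. Whether the reads were counted by strand is not given in the sources used here, so reads of ITGAE and HASPIN may not be told apart where they overlap. With protein-coding transcripts only, 20 members instead of 21 reached FPKM 1 in both libraries, against 55.7% of all genes, and ITGAE was the member lost.

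Laminin alpha chains at FPKM of at least 1 were LAMA5, LAMA3 and LAMA1. LAMA5, the alpha chain of mature tubule basement membrane, had FPKM 41.3 and 39.5 (40.4 ± 1.27, SD, n = 2), or 53.4% and 50.03% of the 5 alpha chains. LAMA3, a chain of epithelial anchorage, had 20.0 and 23.05. LAMA1, the chain of the embryonic kidney and tubule, had 15.3 and 15.2. Over all transcripts, the order LAMA5, LAMA3, LAMA1 held in both libraries without overlap. Over protein-coding transcripts only, LAMA1 lay above LAMA3 in both libraries, at FPKM 14.4 and 13.8 against 9.87 and 10.5, with LAMA5 still highest at 30.5 and 30.1. LAMA2, the muscle chain, had 0.58 and 0.85, and LAMA4, the chain of vessels and mesenchyme, had 0.07 and 0.29. Of the LAMA2 value, 75.8% and 79.3% lay in LAMA2-204, a transcript of 571 nt whose start region lies 607.5 kb into the gene. The long transcript LAMA2-206 had 0.14 and 0.18. The internal start region had H3K27ac in both replicates, and the canonical LAMA2 start had no peak of any mark. LAMA5 is overlapped by ADRM1, a proteasome subunit gene on the other strand with FPKM 115 and 101, over 908 bases.

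Among the 4 beta and 2 gamma chains analysed here, LAMB1 and LAMC1, which join an alpha chain in the widespread laminins, were the highest. LAMB1 had FPKM 124 and 141 (133 ± 12.1, SD, n = 2), and LAMC1 had 120 and 122 (121 ± 1.73, SD, n = 2). Over all transcripts, the libraries of LAMB1 did not overlap those of LAMC1 but did overlap those of ITGA3. Over protein-coding transcripts only, LAMB1 at 109 and 119 and LAMC1 at 117 and 120 did overlap. LAMB2, the chain that replaces beta 1 in the mature glomerulus, had 29.2 and 36.4, of which retained-intron and other noncoding transcripts held enough that the coding share was 64.8% and 50.2%. LAMC3 had 19.4 and 21.5, LAMB3, the beta chain of epithelial anchoring laminin, had 12.7 and 11.8, and LAMB4 had 0.06 and 0. LAMC1 was nearly all 1 transcript, LAMC1-201, at 97.6% and 97.9%.

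In the order of all 37 levels, taken over all transcripts of each gene, neighbours whose libraries overlapped were ITGA3 with LAMB1, LAMA5 with ITGA5, LAMA3 with LAMC3, ITGB2 with ITGB6 and LAMB3, and ITGB4 with ITGB8 among the 21 higher members. The others of the 21 stood apart from the next lower member in both libraries. The ratio of library 2 to library 1 over these 21 had a median of 1.0204 and ran from 0.717 at ITGB4 to 1.35 at ITGA4, while over all protein-coding genes at FPKM of at least 1 the 5th to 95th percentiles were 0.755 to 1.38.

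Other annotated genes overlap the members or start within 1 kb of them in 80 pairs, and in 12 of the 69 pairs whose neighbour was measured the neighbour was at FPKM of at least 1 in each library. Of these, 8 were protein-coding. DLD, a mitochondrial dehydrogenase gene, overlaps LAMB1 on the other strand and had FPKM 21.8 and 20.2. GALK1 (galactokinase) overlaps ITGB4 on the other strand at 18.3 and 19.0, and ZNF740 overlaps ITGB7 at 14.6 and 15.1. ITGB7 itself was at 0.14 and 0.09. METTL7B, over ITGA7, had 2.42 and 2.37. The noncoding neighbours at this level were ITGB1-DT at 8.27 and 7.19, ENSG00000273055 at LAMB1 at 3.62 and 4.51, PDK1-AS1 at ITGA6 at 3.40 and 2.84 and EFCAB13-DT at ITGB3 at 1.42 and 1.39. PELO, BLOC1S1, HASPIN and ADRM1 are given with their members.

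At the starts, H3K4me3 peaks lay within 1 kb in both replicates at 27 of 37 members (70.3% of all protein-coding genes), H3K27ac at 18 (55%) and H3K27me3 at 6 (11.4%). These shares are near those of all genes. A gene counted when each replicate had a peak at any of its starts, not always the same start. At ITGAX, the H3K4me3 peak of replicate 1 lay at the annotated 5′ start. Those of replicate 2 at ITGAX starts lay only at starts 4.8 and 16.3 kb in. Both active marks in both replicates with no H3K27me3 in either were found at 15 members (51.4% of all genes), and no peak of any mark at 3 (15.1%), ITGA10, ITGAL and LAMB4. Replicate 1 of H3K27ac had more and wider peaks than replicate 2, with 57761 and 38639 peaks of median width 1357 and 657 bp, and 27 members had a start peak in replicate 1 (67.5% of all genes) against 18 in replicate 2 (55.1%). For H3K4me3 the order was the other way, with 29130 and 73942 peaks, and 29 members had a start peak in replicate 1 (71.9% of all genes) against 30 in replicate 2 (78%). A start lacking a peak in 1 replicate is therefore read with these totals beside it. By the paper's own figures, the share of mapped reads lying in peaks was higher in replicate 1 for both of these marks.

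**Figure D2:**
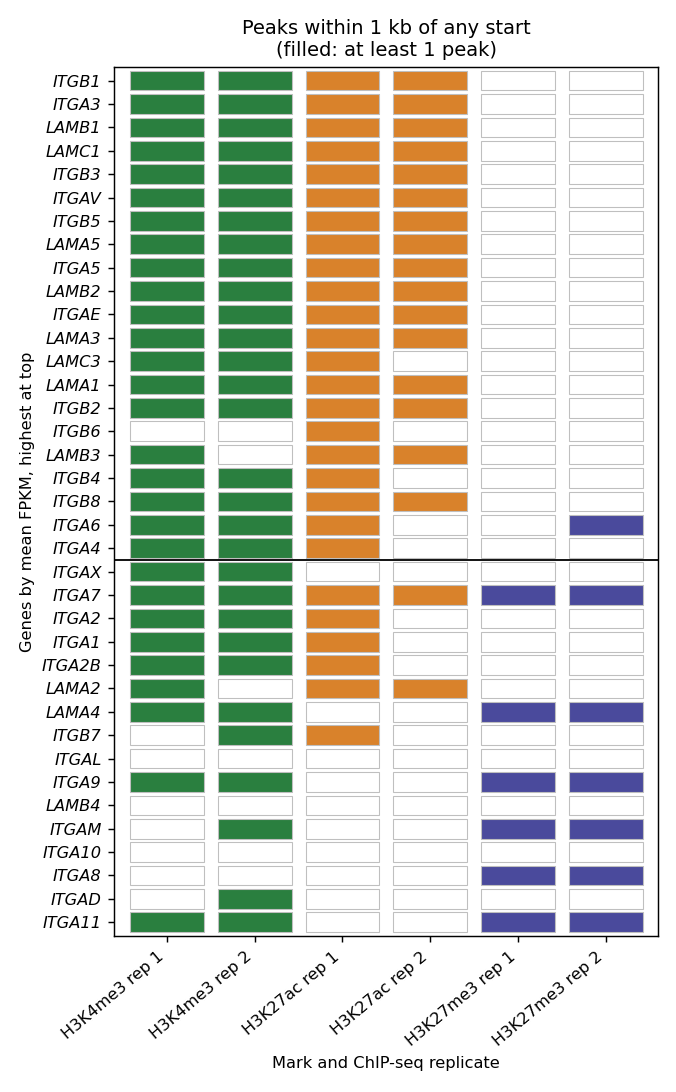
Peaks of H3K4me3 (green), H3K27ac (orange) and H3K27me3 (blue) within 1 kb of any annotated start in each ChIP-seq replicate, 1 row per gene by mean FPKM. A filled box means at least 1 peak, and the black line separates the 21 genes at FPKM of at least 1 in both libraries from the 16 below it.

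Of the 16 members with H3K4me3 and H3K27ac in both replicates, 15 were at FPKM of at least 1 in both libraries (91.9% of all genes with those marks), the other being ITGA7. At ITGA7 the H3K27ac lay at a start that is 1 bp from that of BLOC1S1, a trafficking gene on the other strand with FPKM 31.1 and 31.1, while the canonical ITGA7 start had H3K4me3 and H3K27me3 in both replicates and no H3K27ac. The 6 expressed members without both active marks in both replicates were LAMC3, ITGB6, LAMB3, ITGB4, ITGA6 and ITGA4. At LAMC3, ITGB4, ITGA6 and ITGA4 the missing peak was H3K27ac of replicate 2. At LAMB3 it was H3K4me3 of replicate 2. Of these 5, ITGA6 also had an H3K27me3 peak at its start in replicate 2 only.

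ITGB6 had no peak of any mark within 1 kb of its main start in any replicate, although transcripts from this start had FPKM 5.53 and 7.59. The 150 bases before that start were 36% GC with 0 CpG. Of the FPKM in transcripts now given to noncoding genes, 4.05 and 2.54 lay in 1 transcript of ENSG00000285155 that overlaps ITGB6 on the same strand. Of all protein-coding genes without H3K4me3 in both replicates, 5.39% were at FPKM of at least 1, and of the 10 such members, ITGB6 and LAMB3 were.

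H3K27me3 in both replicates lay at the starts of ITGA7, ITGA8, ITGA9, ITGA11, ITGAM and LAMA4, and 0 of these 6 reached FPKM 1 in both libraries (15.1% of all genes with the mark did). ITGA7, ITGA9, ITGA11 and LAMA4 also had H3K4me3 in both replicates (7.02% of all genes). At ITGA11 the H3K4me3 peaks of the replicates, 372 and 562 bp wide, shared no base. Over the gene body, LAMA4 had 26 H3K27me3 peaks over 50.2 kb in replicate 1, the longest of the 6, and 5 peaks over 3.74 kb in replicate 2, where ITGAM had more. ITGA9 had 20.1 and 3.04 kb, ITGAM had 13.8 and 4.87 kb, and ITGA8 had 6.30 and 3.003 kb. Covered lengths thus differed widely between replicates, while these 6 genes carried a start peak in each.

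LAMA3 showed a difference between its starts. From the upstream start, which gives the long alpha 3B chain, transcripts summed to FPKM 16.5 and 17.6, and this start had H3K4me3 and H3K27ac in both replicates. Of this, LAMA3-202, the long coding transcript, had 8.74 and 7.29, and LAMA3-204, a transcript of 1815 nt without a stop codon, had 7.75 and 10.3. The internal start 183.6 kb downstream, which gives the shorter alpha 3A chain, had FPKM 0 and 2.89 and no peak of any mark. The libraries differ for the internal start, since LAMA3-201 was listed at 0 in library 1 and made up 12.5% of the gene in library 2. It is at this start that the sequence shown above holds the TGANTCA matches, and at the upstream start that it holds 21 CpG.

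ITGB2 also had several starts. At the outermost start, both active marks lay in both replicates and transcripts had FPKM 1.00 and 0.99. A start 3.1 kb further in had FPKM 3.83 and 7.20, with H3K27ac in both replicates and H3K4me3 in replicate 1. The canonical start, 10.9 kb in, had FPKM 7.83 and 3.32 and no peak of any mark. The 2 inner starts changed places between the libraries, with ITGB2-201 at 7.52 and 1.38 and ITGB2-203 at 2.87 and 5.09, although the gene's sum was 13.0 and 12.1. At ITGAE, unlike ITGB2, it was an inner start that had both active marks in both replicates, that of its short transcripts, shared with HASPIN. The canonical ITGAE start, at FPKM 0.49 and 0.32, had H3K27ac in both replicates and no H3K4me3.

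**Figure D3:**
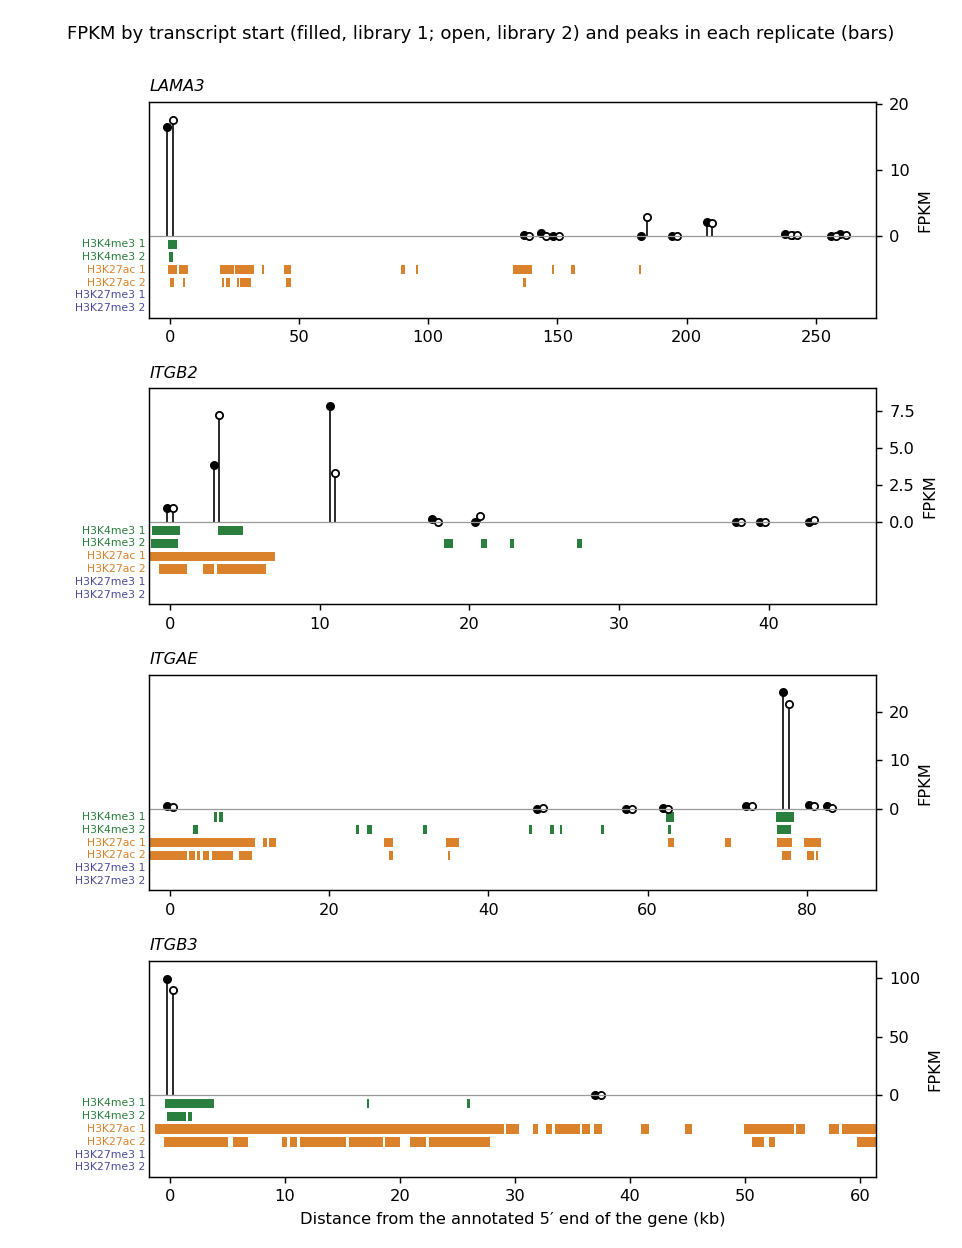
FPKM of the transcripts that begin at each start region (points on stems, filled for library 1 and open for library 2, shifted slightly apart) against distance in kb from the annotated 5′ end, with peaks of each mark and replicate as bars under the axis, for LAMA3, ITGB2, ITGAE and ITGB3. At LAMA3 the stem at 0 kb (16.5 and 17.6) stands over H3K4me3 and H3K27ac bars, and at ITGAE the tall stem at 77.3 kb does, far from the gene's 5′ end.

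H3K27ac over the gene body, in both replicates, was found at 26 of 37 members (59.4% of all genes), and beyond 1 kb of any start at 22 (27.6%). The members are long genes, with a median length of 81.7 kb against 27.6 kb over all protein-coding genes, and a longer gene has more room for a peak, so this excess was not tested for length. As a share of the gene's bases, the median was 6.47% in replicate 1 and 1.14% in replicate 2, beside 4.05% and 0.909% over all genes. ITGB3 had the largest share, 72.7% in replicate 1 and 40.6% in replicate 2, which is 43.5 and 24.3 kb of a 59.9 kb gene. ITGA3 followed with 36.1% and 23.6%, and ITGB1 had 29.6% and 12.0%. The annotated ITGB1 gene begins 47.5 kb upstream of the start region that held 98.9% and 99.2% of its FPKM. The ITGB1 share therefore includes peaks upstream of that region, such as 7911 bp in replicate 1 and 5012 bp in replicate 2. That upstream stretch is where ITGB1 overlaps ITGB1-DT, over 47356 bases. Among the laminins LAMB3 had 26.96% and 19.5%, LAMA5 had 23.8% and 8.0%, and LAMC1 had 20.4% and 7.0%. LAMA3 had 12.5% and 4.5%, or 33.3 and 12.0 kb. No H3K27ac peak lay over ITGA8, ITGA9, ITGAD or ITGAX in either replicate.

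**Figure D4:**
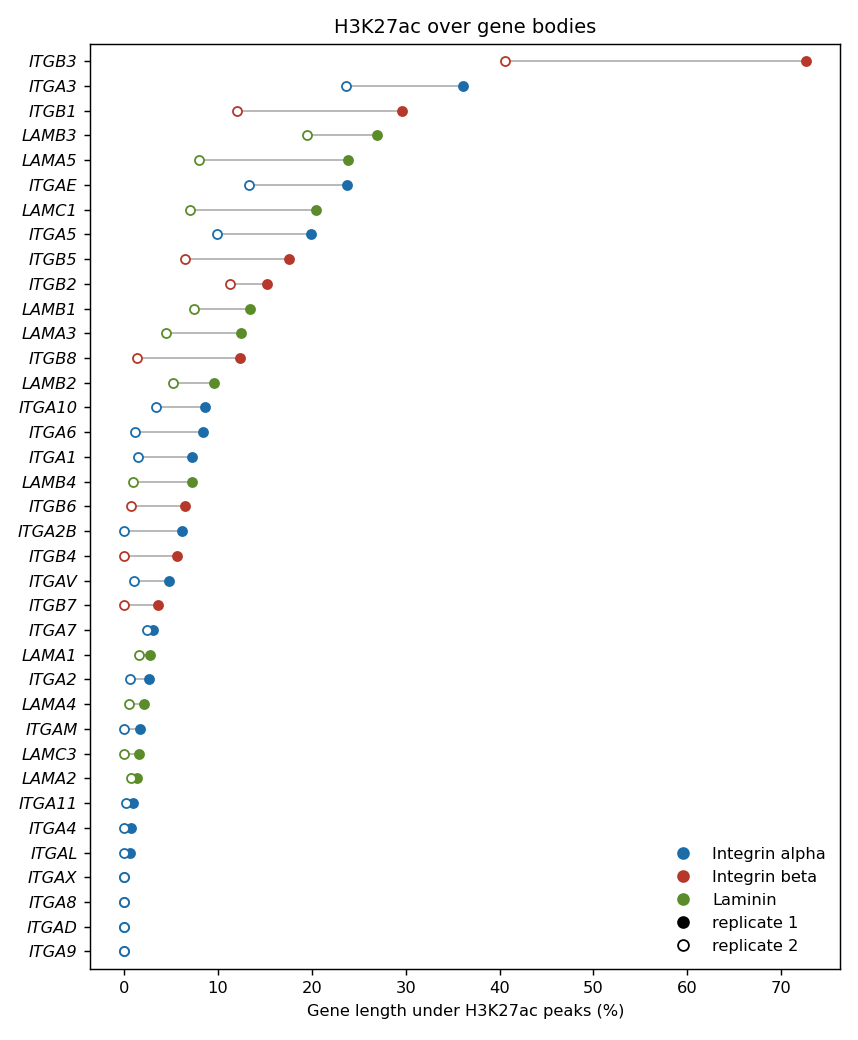
Share of each gene's length under H3K27ac peaks, filled for replicate 1 and open for replicate 2, by gene. ITGB3 is the highest in both replicates (72.7% and 40.6%), and replicate 1 is at or above replicate 2 at every gene.

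Transcripts of the genes that link integrins to the cytoskeleton were measured beside the members, and the counts of each list below stand against 58.8% of all protein-coding genes at the same threshold. Of 20 activators and adaptors, 19 were at FPKM of at least 1, led by VCL (vinculin) at 66.0 and 64.7, ZYX (zyxin) at 66.1 and 60.7 and PXN (paxillin) at 63.7 and 50.3, and FERMT3, the kindlin of blood cells, was at 0.37 and 0.17. Of 4 hemidesmosome genes, CD151, PLEC and DST were at FPKM of at least 1 (122 and 117, 70.7 and 69.5, 21.3 and 26.8), and COL17A1 was at 0.23 and 0.28. All 6 genes listed as other laminin receptors were at FPKM of at least 1: RPSA had 804 and 773, and SDC4 had 180 and 180. Whether the RPSA level bears on adhesion was not tested. SDC2 at 111 and 41.2 and DAG1 at 4.98 and 25.1 differed strongly between the libraries, DAG1 not being among the 3 highest and named after its values were seen.

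Among transcripts of ligands, 9 of 12 basement membrane partners of laminin were at FPKM of at least 1, against the same 58.8%, with SPARC at 486 and 477, COL4A2 at 383 and 375 and COL4A1 at 329 and 337. COL4A3, COL4A4 and COL4A6, the chains of specialised basement membranes, were at 0 or up to 0.005. Of 12 other integrin ligands, 8 were at FPKM of at least 1, a share near that of all genes, with FN1 (fibronectin) at 2333 and 2343, SPP1 (osteopontin) at 578 and 613 and THBS1 at 150 and 153. VTN, VCAM1, MADCAM1 and CDH1 were below 1, so E-cadherin, the ligand of alpha E, was at 0.21 and 0.28. Of 11 proximal tubule markers, 5 reached FPKM 1 in both libraries, a smaller share than the 58.8% of all genes, led by PAX8 at 100 and 104, and LRP2 and HNF4A, which define mature tubule, were listed at 0. Of 6 epithelial markers, 4 reached FPKM 1 in both libraries, against 58.8% of all genes, led by KRT8 at 179 and 184. The others were CDH1, given above, and CLDN4 at 44.4 and 0.41, named after its values were seen. No endothelial, platelet or distal nephron marker measured reached FPKM 1. COL1A1 alone of 6 fibroblast and muscle markers did, at 40.3 and 39.9, and SYNPO was the highest of 5 podocyte markers at 14.7 and 16.2.

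**Figure D5:**
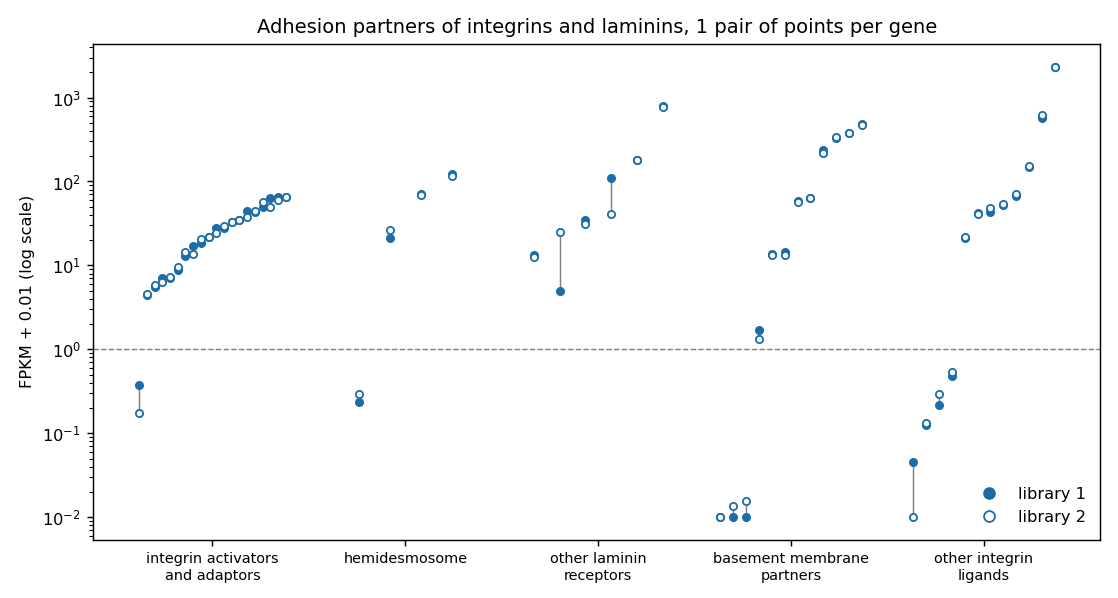
FPKM + 0.01 on a log axis for the 5 lists of integrin and laminin partners, 1 pair of points per gene (filled for library 1, open for library 2), ordered by level within each list. Most genes lie above the dashed line at FPKM 1, FN1 is the highest at 2333 and 2343, and the long joining lines among the laminin receptors are DAG1 and SDC2.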

How the data were processed

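HK2 cells were profiled by RNA-seq (2 libraries) and by ChIP-seq of H3K4me3, H3K27ac and H3K27me3 (2 replicates each). For RNA, the authors mapped reads with HISAT2, to hg19 by the methods, and deposited FPKM, TPM and coverage per transcript from StringTie 1.3.3, whose coordinates are those of GENCODE version 27 on GRCh38. For ChIP, the authors aligned to hg19 with Bowtie2 and called peaks per replicate with MACS2. Each peak is given by its limits only, and how many reads lie under it cannot be told. For whole replicates, the paper does report aligned read pairs and the share of mapped reads lying in peaks. Replicate 1 had more aligned pairs than replicate 2 for every mark. Its share in peaks was far higher for H3K27ac, higher for H3K4me3 and nearly equal for H3K27me3. The ChIP-seq replicate with no number in its label is called replicate 1.

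FPKM was summed per gene, and genes were joined by Ensembl identifier to GENCODE version 44 on GRCh37 for starts and gene types. An FPKM of 1 corresponded to a mean coverage of 5.67 and 5.52 reads per base in libraries 1 and 2. Starts within 1000 bp of each other formed a start region, and a peak counted at a start when it overlapped 1 kb either side by at least 1 base. Level order counted as separate when both libraries of a gene lay above both of the next. Every member was named, of each partner list the 3 highest genes and those below FPKM 1, and of each marker list the highest and those at 0, except 1 marker that is not reported here. Members and lists were chosen with earlier results of these data known. Alternatives were TPM, thresholds 0.5 and 2, other pseudocounts, windows and peak widths, and leaving out each replicate. Python 3.11.15, numpy 2.4.6, pandas 2.3.3 and matplotlib 3.10.9 were used, and the interval code was tested on simulated data.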

Additional observations from a re-analysis of the deposited data

How the results depend on the processing

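No paired analysis was possible because no result comes from a test between groups. The median log2 level of the members, 2.92, was 2.74 with a pseudocount of 0.1, 4.26 in TPM, 3.76 over members at a mean FPKM of at least 0.1 and 2.35 over protein-coding transcripts only, an alternative chosen after seeing the data; it ran from 2.84 to 2.95 with 1 library left out. The other counts stayed within 1.5 times their values. Members at the FPKM threshold of 1 numbered 20 to 27 over its alternatives. H3K27ac at starts ran from 16 to 27, the highest with replicate 1 alone or with a peak in either replicate. H3K4me3 at starts, at 27 members, was 25 with a base shared by both replicates. It was 22 at the annotated gene start only and 32 with a peak in either replicate. The members' median share of gene bases under H3K27ac was 3.59% as the mean of the replicates, 6.47% in replicate 1 and 1.14% in replicate 2. No score or depth comes with a peak, which limits how firmly a missing peak can be read.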
